A study of Rattus norvegicus with 6 samples.

Results

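Genes of the neuronal cytoskeleton and of axon growth were described in the embryonic rat cortex: the 6 genes Map2, Mapt, Nefl, Nefm, Gap43 and Cdk5, out of 32754 gene IDs in the deposited count table. They were taken as a fixed list of 6 gene IDs with the symbol of each, and all 6 passed the filter on low counts that left 14818 genes for testing. The list was chosen with earlier results of these data known, so counts of its members called are a description only. The symbols are those given with the list. The reference table names 6 of the 6 symbols as genes of the assembly GRCr8 but gives an Ensembl ID for 0 of them, so the match of ID to symbol was not checked against the annotation of Rnor_6.0, the build of the files. The study sequenced RNA from 3 Sprague-Dawley (SD) rats, the control strain, and 3 rats of the tish line at embryonic day 18, with 2 males and 1 female in each group and no treatment named. The tish rat carries, per the title of the series, a deletion in Eml1, a gene of a microtubule-associated protein, and has a band of misplaced neurons under the cortex of both hemispheres.

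Tissue and genotype changed together. The protocol describes SD tissue as neocortex and tish tissue as cortex with both its normally placed and its dysplastic heterotopic portion, while the single samples are labelled cortex for SD and neocortex for tish. Strain, dissection and genotype therefore cannot be told apart. The labels name neither dams nor litters. If embryos of a group were littermates, the p-values measure only the spread among them. The check of the tissue against marker genes, and of Eml1 itself, was not analysed here, because the gene IDs are not paired with symbols outside the 6.

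Neurons build their processes on microtubules and neurofilaments. Map2 and Mapt (tau) encode related proteins that bind and stabilise microtubules, Map2 mostly in dendrites and cell bodies and tau mostly in axons. Nefl and Nefm encode the light and the medium subunit of the neurofilament, the intermediate filament that sets axon calibre. Gap43 encodes a membrane protein of growth cones that is abundant while axons extend. Cdk5 encodes a kinase that is active in neurons when bound to its activators p35 or p39, phosphorylates tau and neurofilament proteins among others, and is needed for the migration of cortical neurons.

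Libraries held 15625915 to 20844504 counts, and the 6 genes had 509 to 73448 counts each in a library, so counting error was at most 4.43% of a value. SD 1 stood apart from its replicates. For pairs of replicates, over genes whose counts in the 2 libraries summed to 20 or more, the chi-square statistic was 24.5 and 21.6 times its degrees of freedom between SD 1 and the other SD libraries, against 14.6 for the pair of SD 2 with SD 3. For pairs of tish libraries it was 8.56 to 15.4, highest for tish 2 with tish 3. Results that rest on SD 1 are given with and without it. Levels below are CPM, in which libraries of unequal depth are put on one scale with TMM factors (trimmed mean of M values). They do not account for gene length, so they compare libraries and not genes.

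Mapt and Gap43 rose in tish, and the other 4 did not pass the test. A gene was called at an adjusted p under 0.05 (edgeR quasi-likelihood test, Benjamini-Hochberg over all tested genes). By this rule 2 of the 6 were higher and 0 were lower in tish, against 13.4% of all tested genes called higher, 12.9% called lower and 26.3% called in either direction. At an unadjusted p under 0.05 in edgeR, 4 of the 6 were higher and 0 lower, against 19.2% and 19.7% of all tested genes. DESeq2 called 3 of the 6 higher and 0 lower, against 14.5% and 12.9% of all tested genes. In limma-voom 2 were called higher and 0 lower, against 14% and 12.9%. The fitted log2 fold change was above 0 for 6 of 6, with a median of 0.30 against -0.02 over all tested genes. In whole tissue, more neurons and more RNA per neuron cannot be told apart.

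**Figure D1:**
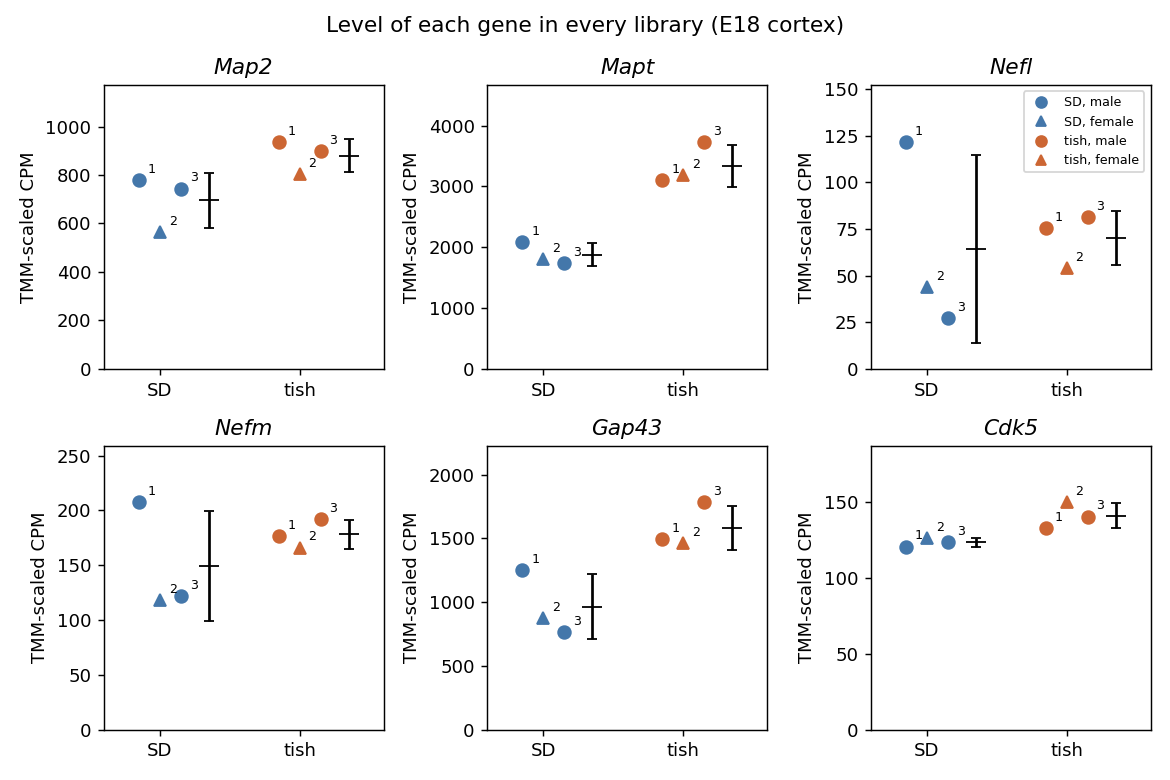
Level of each gene in TMM-scaled CPM (vertical axis, from 0) in every library of SD and tish, with circles for males, triangles for females and the replicate number beside each point; the bar is the mean with 1 standard deviation, n = 3. All tish points lie above all SD points for Mapt, Gap43, Map2 (not without scaling factors) and Cdk5, while SD 1 is the highest point for Nefl and Nefm.

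Mapt (ENSRNOG00000005133), the axonal microtubule-binding gene, had the largest fold among the 6 with all libraries in the fit. Without SD 1 the fitted folds were 1.98 for Nefl, 1.93 for Gap43 and 1.89 for Mapt, and with SD 1 and tish 3 both left out the log2 fold changes were 0.87, 0.85 and 0.83 in the same order. Its level was 2091, 1802 and 1736 CPM across SD 1 to SD 3, against 3103, 3183 and 3736 CPM across tish 1 to tish 3. The groups did not overlap, and the lowest tish library was 1.48 times the highest SD library. Such a separation was found with tish above SD for 21.7% of all tested genes and with tish below SD for 22.6%. Mean levels were 1876 ± 188 CPM in SD and 3341 ± 345 CPM in tish (± s.d., the standard deviation, n = 3 per group), and the fitted fold was 1.78. The log2 fold change of Mapt was 0.83 (SE 0.11, 95% interval 0.58 to 1.08, edgeR adjusted p = 0.000987). Of all tested genes, 6.36% had a higher log2 fold change. The 2 groups spread alike around their means, with coefficients of variation of 10.05% in SD and 10.31% in tish. Mapt passed the threshold in all 17 alternative settings, with log2 fold changes from 0.75 to 0.92 and adjusted p from 1.22e-11 to 0.0148.

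Map2 (ENSRNOG00000011841), the dendritic counterpart of Mapt, had a smaller fold and was not called. It stood at 777, 566 and 744 CPM across SD 1 to SD 3, against 937, 804 and 900 CPM across tish 1 to tish 3. The groups did not overlap, although the lowest tish library was only 1.03 times the highest SD library, and without scaling factors they overlapped, with tish 2 at 795 and SD 1 at 807 CPM. The female library was the lowest of each group. Mean levels were 696 ± 114 CPM in SD and 880 ± 68.9 CPM in tish (s.d., n = 3 per group). The fitted fold was 1.27 (95% interval 1.04 to 1.54), a log2 fold change of 0.34 (SE 0.13) with an edgeR adjusted p of 0.0767. The interval is not adjusted for the number of genes tested, and the adjusted p missed the threshold. With sex as a covariate Map2 was called, at a log2 fold change of 0.35 (edgeR adjusted p = 0.0146). It was also called by DESeq2 (adjusted p = 0.0281), in edgeR with no filter on low counts (adjusted p = 0.0422) and in edgeR without SD 1 (adjusted p = 0.0271). Over the 17 alternatives its log2 fold change ran from 0.21 to 0.43 and its adjusted p from 0.0146 to 0.219.

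The ratio of Mapt to Map2 counts within a library needs no scaling between libraries, and gene length cancels when the ratio is compared between groups. It was 2.69, 3.19 and 2.33 across SD 1 to SD 3, against 3.31, 3.96 and 4.15 across tish 1 to tish 3. All tish libraries lay above all SD libraries, with tish 1 close to SD 2. Means were 2.74 ± 0.429 in SD and 3.81 ± 0.441 in tish (s.d., n = 3 per group). The log2 ratio was 0.48 higher in tish, a factor of 1.40, with an exact two-sided permutation p of 0.1, which is the smallest that 3 against 3 allows and cannot reach 0.05 (0.2 after adjustment over the 2 ratios tested). With 1 library left out the difference was 0.37 to 0.60 on the log2 scale, and in males alone it was 0.57.

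**Figure D2:**
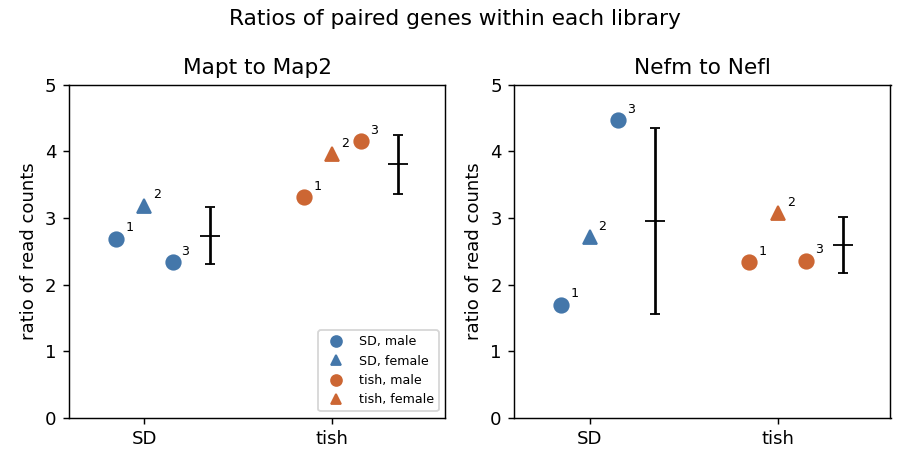
Ratio of read counts of Mapt to Map2 (left) and of Nefm to Nefl (right) in every library, with circles for males, triangles for females, replicate numbers beside the points and bars for the mean with 1 standard deviation, n = 3. The Mapt to Map2 ratio is higher in each tish library than in any SD library, while the Nefm to Nefl ratios of tish lie inside the range of SD, 1.70 to 4.47.

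Gap43 (ENSRNOG00000001528), the growth cone gene, also rose, with a wider spread in SD than Mapt had. Its level was 1250, 877 and 765 CPM across SD 1 to SD 3, against 1493, 1465 and 1781 CPM across tish 1 to tish 3. The groups did not overlap, and SD 1 came closest to tish, with the lowest tish library at 1.17 times its level. Mean levels were 964 ± 254 CPM in SD and 1580 ± 175 CPM in tish (s.d., n = 3 per group). The fitted fold was 1.64 (95% interval 1.23 to 2.18), a log2 fold change of 0.71 (SE 0.18, edgeR adjusted p = 0.0209). Of all tested genes, 8.25% had a higher log2 fold change. The direction held in every alternative, but the call did not. It was lost without SD 2 (edgeR adjusted p = 0.0987), SD 3 (0.0539), tish 1 (0.0557) or tish 3 (0.0668), and in males alone (0.167). Without SD 1 the log2 fold change was 0.95 (SE 0.12, edgeR adjusted p = 0.000326).

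The neurofilament subunits did not pass the test, and SD 1 decided their values. Nefm (ENSRNOG00000013916), the medium subunit, stood at 207, 118 and 122 CPM across SD 1 to SD 3, against 177, 166 and 192 CPM across tish 1 to tish 3. The 3 tish libraries lay close together, above SD 2 and SD 3 and below SD 1. Mean levels were 149 ± 50.3 CPM in SD and 178 ± 13.2 CPM in tish (s.d., n = 3 per group). The fitted fold of Nefm was 1.20 (95% interval 0.834 to 1.71), a log2 fold change of 0.26 (SE 0.22, edgeR adjusted p = 0.437). Without SD 1 the same test gave a log2 fold change of 0.57 (SE 0.09, edgeR adjusted p = 0.0011). Without SD 2 or SD 3 it gave 0.12 and 0.13 (adjusted p = 0.765 and 0.744), and with SD 1 and tish 3 both left out it gave 0.51 (adjusted p = 0.00542). SD 1 and tish 3 were the highest Nefm libraries of their groups, and SD 1 was the only SD library above tish. Fits without them therefore depend on the values tested and are a description only.

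Nefl (ENSRNOG00000013658), the light subunit that neurofilaments need to assemble, varied most. Its level was 122, 43.8 and 27.3 CPM across SD 1 to SD 3, against 75.6, 54.0 and 81.4 CPM across tish 1 to tish 3. SD held both the highest and the lowest library, 4.47-fold apart, and all 3 tish libraries fell between SD 2 and SD 1. Mean levels were 64.3 ± 50.5 CPM in SD and 70.4 ± 14.4 CPM in tish (s.d., n = 3 per group), coefficients of variation of 78.6% and 20.5%.

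The fitted fold of Nefl was 1.10, with a 95% interval of 0.36 to 3.33 (log2 fold change 0.13, SE 0.61, edgeR adjusted p = 0.904). That interval holds folds well below and well above 1, so the 6 libraries set no narrow limit on the change of Nefl. Without SD 1 the log2 fold change was 0.99 (SE 0.28, edgeR adjusted p = 0.0464), and with SD 1 and tish 3 both left out it was 0.87 (adjusted p = 0.0384). Without SD 2 or SD 3 it turned negative, at -0.08 and -0.24 (adjusted p = 0.954 and 0.781). For Nefl too, SD 1 and tish 3 were the highest of their groups, and only SD 1 among the SD libraries was above tish. The fits without them are therefore a description only. SD 1 stood at 3.43 times the mean of SD 2 and SD 3 for Nefl, 1.72 times for Nefm, 1.52 times for Gap43, 1.19 times for Map2, 1.18 times for Mapt and 0.966 times for Cdk5. Whether the tissue taken for SD 1 differed was not tested.

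**Figure D3:**
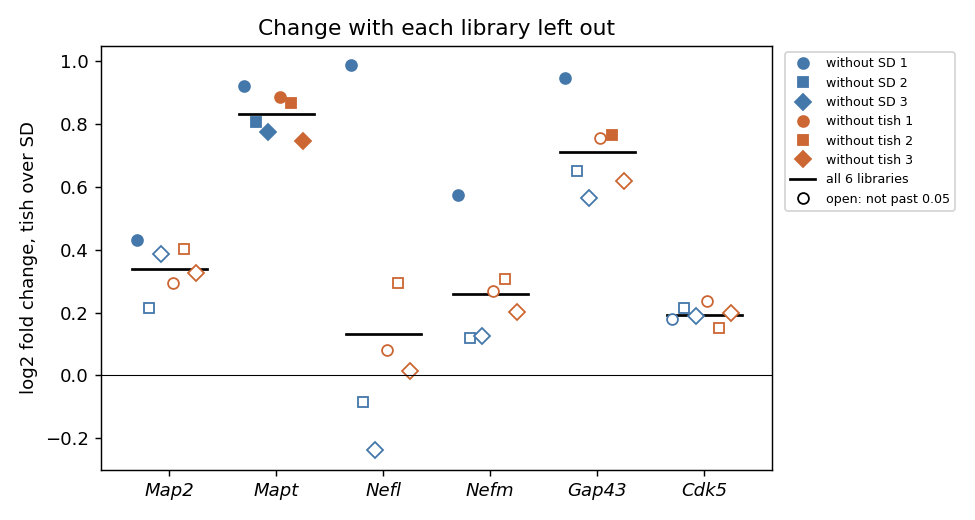
Fitted log2 fold change of tish over SD (vertical axis) for each gene with 1 library left out at a time; colour and shape name the library left out, filled points passed an edgeR adjusted p of 0.05, and the black line is the value with all 6 libraries. Mapt is filled at all 6 points, Cdk5 at 0 of 6, and without SD 1 the values of all genes but Cdk5 are the highest of their gene.

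The ratio of Nefm to Nefl counts varied inside SD as much as the range across all libraries. It was 1.70, 2.71 and 4.47 across SD 1 to SD 3, against 2.33, 3.07 and 2.36 across tish 1 to tish 3. The tish ratios lay inside the range of SD. The log2 ratio differed by -0.09 between tish and SD (exact two-sided permutation p = 0.8), and the sign turned without SD 3, to 0.26. In the reference table of GRCr8, the 2 genes are neighbours on 1 chromosome, with 1 listed gene and 0 protein-coding genes between them.

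Cdk5 (ENSRNOG00000008017), the kinase, had the smallest spread of the 6, with coefficients of variation of 2.24% in SD and 5.92% in tish. Its level was 120, 126 and 123 CPM across SD 1 to SD 3, against 133, 149 and 140 CPM across tish 1 to tish 3. The groups did not overlap, with the lowest tish library at 1.06 times the highest SD library. Mean levels were 123 ± 2.75 CPM in SD and 141 ± 8.33 CPM in tish (s.d., n = 3 per group). The fitted fold was 1.14 (95% interval 1.02 to 1.29), a log2 fold change of 0.19 (SE 0.08) with an edgeR adjusted p of 0.0904, so Cdk5 was not called. It was called in 0 of 17 alternatives, where its log2 fold change was 0.15 to 0.24 and its adjusted p 0.0634 to 0.282. The female library was the highest of each group for Cdk5.

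**Figure D4:**
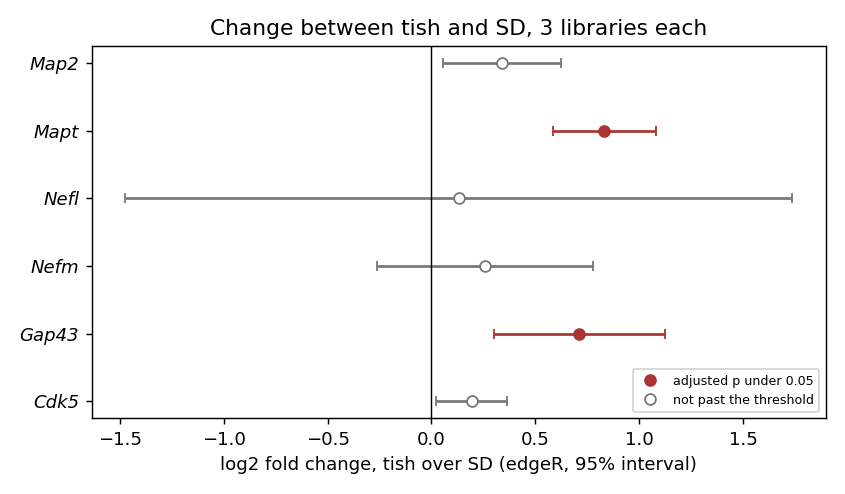
Fitted log2 fold change of tish over SD (horizontal axis) with its 95% interval for each gene, 3 libraries a group; filled points passed an edgeR adjusted p of 0.05. Mapt and Gap43 are filled, Map2 and Cdk5 have unadjusted intervals just above 0, and the interval of Nefl, -1.47 to 1.74, is the widest.

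Counted together, the groups did not overlap for 4 of the 6 genes, Map2, Mapt, Gap43 and Cdk5, all with tish above SD, and for 3 of them, not Map2, without scaling factors. Over all tested genes, with TMM scaling, the groups did not overlap for 21.7% with tish above SD and for 44.3% in either direction. The share of all tested genes without scaling factors is not given here. The 6 genes took 0.393% ± 0.0701 of the counts in SD and 0.610% ± 0.0459 in tish (s.d., n = 3 per group), a share in which Mapt and Gap43 carry the most counts. The sexes gave the same direction for the mean levels of each gene. For Mapt the fold of tish over SD was 1.79 between the means of 2 males each and 1.77 between the single females. For Gap43 these folds were 1.62 and 1.67, for Map2 1.21 and 1.42, and for Cdk5 1.12 and 1.19. For Nefm they were 1.12 and 1.40 and for Nefl 1.05 and 1.24, but the males of the groups overlapped for both neurofilament genes. A difference between the sexes was not tested.

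Within the groups, SD 1 and tish 3 were high in several of these genes. In SD 1, Map2, Mapt, Nefl, Nefm and Gap43 were at their highest of the SD group and Cdk5 was at its lowest. In tish 3, Mapt, Nefl, Nefm and Gap43 were at their highest of the tish group. After each group's mean was subtracted, Pearson's r of log2 CPM over the 6 libraries was 0.96 between Nefl and Gap43, 0.94 between Nefm and Gap43, 0.93 between Nefl and Nefm and 0.91 between Mapt and Gap43. For Cdk5 the values with the other 5 were negative, from -0.68 with Map2 to -0.14 with Mapt. These values describe 6 libraries that share their scaling, and part of them rests on SD 1. Without it, over 5 libraries, r was 0.80 between Nefl and Gap43, 0.68 between Nefm and Gap43, 0.46 between Nefl and Nefm and 0.91 between Mapt and Gap43. Map2 turned from 0.39 to -0.32 with Nefl, from 0.37 to -0.31 with Gap43 and from 0.32 to -0.09 with Mapt. For Cdk5 r then ran from -0.63 with Map2 to 0.10 with Mapt.

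**Figure D5:**
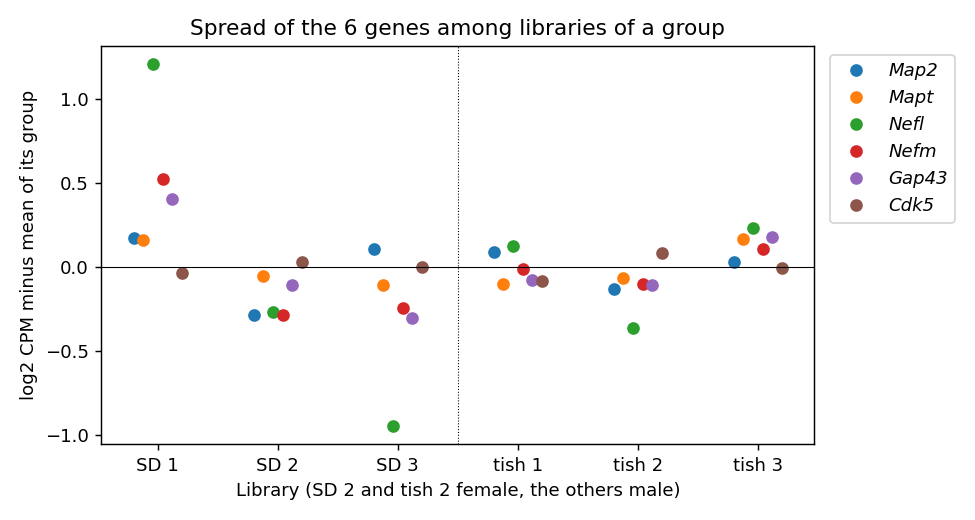
Difference of log2 CPM from the mean of its own group (vertical axis) for the 6 genes in each library, with the groups parted by the dotted line. SD 1 is above its group's mean for 5 genes, up to 1.21 for Nefl, while Cdk5 stays within 0.09 of its group's mean in every library.

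Without the group means subtracted, Mapt and Gap43 were the most alike pair, at r = 0.95 over the 6 libraries, and Nefl and Cdk5 the least, at 0.05. The tested genes outside the list whose log2 CPM followed the mean standardised profile of the 6 most closely were ENSRNOG00000006051 (Pearson's r = 0.999) and ENSRNOG00000033894 (r = 0.998), both over 6 libraries and without a symbol in the sources used here. ENSRNOG00000006051 stood at 7.57, 4.05 and 4.18 CPM across SD 1 to SD 3, against 9.83, 9.32 and 12.0 CPM across tish 1 to tish 3. It thus had SD 1 as the highest SD library and tish 3 as the highest tish library, as Mapt and Gap43 did. They were picked as the closest of all tested genes, so a high r is a result of the choice.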

How the data were processed

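RNA sequencing of 6 rat cortices was used. The authors deposited raw read counts per Ensembl gene ID. The submitters' processing notes name STAR, the build Rnor_6.0 and featureCounts 1.5.0. The sources used here do not give the annotation release, the strand setting or the treatment of multi-mapping reads. Whether reads of overlapping or antisense genes were kept apart is therefore not known. The deposited table lists each member 2 times, with 0 differing values, and the first was used.

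Groups came from the genotype label, and replicate numbers from sample order. Genes were filtered with filterByExpr (minimum count 10), scaled by TMM and tested with edgeR 4.0.16 in R 4.3.3 (robust glmQLFit, glmQLFTest, genotype as the only term). All genes were fitted and adjusted by Benjamini-Hochberg, with calls at an adjusted p under 0.05. The SE is the log2 fold change divided by the square root of F. For correlations, CPM were log2-transformed with prior count 2. The procedure was tested on simulated data. It called 24 of 50 genes changed 1.5-fold in the right direction, and 31 of 50 changed 2-fold. At 4-fold and 8-fold it called 49 of 50 and 47 of 50. Of 14618 unchanged genes, out of 14818 in all, it called 8. The changed genes were drawn at random from all tested genes, at any level. They were a far smaller share than the 26.3% called in the real data. The rates found are therefore not rates for these 6 genes. Folds below 1.5 were not simulated, so a gene with a small fold that was not called may still have changed. Alternatives were DESeq2 1.42.0, limma-voom (limma 3.58.1), other scalings and filters, sex as a covariate, males alone, libraries left out, and thinning to the smallest total. The genes named are the 6 members and the 2 genes outside them most like their mean profile. The members and lists were chosen with earlier results of these data known. Planned lists of further cytoskeletal genes and of cell type markers were not analysed here, because they are given by symbol.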

Additional observations from a re-analysis of the deposited data

How the results depend on the processing

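Of 102 log2 fold changes of the 6 genes under other settings, 87 kept direction and side of the threshold, 5 lost the call, 8 gained it and 2 reversed. Map2 gained a call under DESeq2 (0.35), with no filter on low counts (0.35) and with sex as a covariate (0.35). With SD 1 and tish 3 left out together, Nefl (0.87) and Nefm (0.51) gained one. SD 1 and tish 3 were the highest libraries of their groups for both genes, so these gained calls are a description only. Gap43 lost its call in males alone (0.70). With 1 library left out, log2 fold changes ran from 0.21 to 0.43 for Map2, 0.75 to 0.92 for Mapt, -0.24 to 0.99 for Nefl, 0.12 to 0.57 for Nefm, 0.57 to 0.95 for Gap43 and 0.15 to 0.24 for Cdk5. Nefl reversed without SD 2 (-0.08) and without SD 3 (-0.24). The number of the 6 genes called higher in tish was 2 with all libraries, 1 in males alone, 4 without SD 1 and tish 3, and 1 to 5 with 1 library left out, 5 of them without SD 1. The share of all tested genes called higher in tish was 13.4% with all libraries and 7.87% in males alone. It was 13.1% without SD 1 and tish 3 and 16.5% without SD 1. In the 4 settings with 1 library left out that called 1 of the 6, it was 8.68% to 10.3%. None of the 6 was called lower in any setting run. The log2 ratio of Nefm to Nefl ran from -0.44 to 0.26 with 1 library left out, and reversed without SD 3 (0.26); that of Mapt to Map2 ran from 0.37 to 0.60. Fits with fewer libraries have fewer degrees of freedom, and calls were both lost and gained in them. The cause of the changed calls was not tested. No scaling moved the median of all tested genes by as much as 0.1 on the log2 scale. The lowest count of these genes in a library was 509, and whether more depth would change the results was not tested. No paired analysis was run, because SD and tish were separate animals and the labels name nothing that links an SD animal to a tish animal.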
